A study of Mus musculus with 12 samples.

Results

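The comparison described here is that of night with day in the hippocampus of control mice, 6 of the 12 RNA-seq libraries of a study of presenilin conditional knockout mice. The 3 libraries labelled Day WT and the 3 labelled Night WT were chosen by their genotype and time labels and by no measured value. Mice were killed under pentobarbital anaesthesia at 9 in the morning or 9 in the evening, and each library is labelled Day or Night; RNA of the dissected hippocampus was sequenced after removal of ribosomal RNA. The other 6 libraries come from mice with a conditional deletion of presenilin 1 and presenilin 2 (DKO), killed at the same 2 hours. Strain, age, sex, the light schedule, the driver of the conditional deletion and whether WT mice carry floxed alleles could not be read from the labels or the design text. Nor do these say whether libraries of a group come from separate mice, so the p-values describe the spread among the libraries, which may be technical.

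Most cells hold a molecular clock in which BMAL1 (gene Arntl) and CLOCK switch on the Per, Cry, Nr1d1 and Nr1d2 genes, whose proteins then repress BMAL1 and CLOCK or the Arntl gene itself. Output factors such as DBP carry the rhythm to other genes. In nocturnal rodents the adrenal glucocorticoid corticosterone peaks near the start of the dark phase, and the hippocampus is rich in receptors for it. The glucocorticoid receptor switches on genes such as Fkbp5, Tsc22d3 and Sgk1, so both groups of genes can report time of day in this tissue.

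Gene levels are FPKM as the authors deposited them, a read density per unit of transcript length that is also corrected for library size. They summed to between 151059 and 175692 per library, and no read number is known, so no counting interval can be given. Of 21878 genes, 12689 reached 0.5 FPKM in at least 3 of the 12 libraries and were tested. Differences are night minus day on the scale of log2(FPKM + 1), which shrinks those of genes near 1 FPKM, and group values are mean ± SD of 3 libraries. A gene was called, and is said to have risen or fallen, at an adjusted p under 0.05 (limma over all 12 libraries, Benjamini-Hochberg over all genes tested, 2-sided). Median-of-ratios scaling divides each library by a size factor, the median ratio of its genes to their geometric mean over libraries, so that the typical gene is level between libraries.

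Several features set single libraries apart. The Y-linked genes Kdm5d, Ddx3y, Eif2s3y and Uty stood at 0.0225 FPKM or less in Night WT replicate 1 and at 1.79 to 8.47 FPKM in the other 5 WT libraries, so that library differed from these 5 as a female from male mice would. No marker of the inactive X was examined, and whether the library is otherwise correctly labelled was not tested. Choroid plexus genes come from tissue next to the hippocampus. They summed to 1188 FPKM in Day WT replicate 3 and 1438 in Night WT replicate 2, against 2700.2 to 3316 in the other 4. Their low and high libraries thus stood on both sides of the comparison. None of the 16 was called, beside 1.67% of all genes without scaling and 0.449% with it. Psen2, a target of the knockout, stood at 1.67, 1.47 and 2.87 FPKM by day and 3.55, 2.94 and 3.64 at night in WT, above the 0.275 to 0.594 FPKM of the 6 DKO libraries. Hippocampal subfield markers summed to 227 to 256 FPKM by day and 246 to 265 at night in WT. Among them Prox1 of dentate granule cells stood at 4.38, 4.53 and 5.73 FPKM by day and, lower throughout, at 4.26, 3.92 and 3.97 at night. Iyd, another, was near 0 in Night WT replicate 3 (0.0254 FPKM with scaling, against 0.503 to 0.837 in the other WT libraries).

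Genes called between night and day in WT were mostly higher at night in the deposited values and mostly lower once libraries were scaled. Without scaling, 212 of 12689 genes were called (1.67%), 192 higher (1.51%) and 20 lower (0.158%). With scaling 57 were called (0.449%), 23 higher (0.181%) and 34 lower (0.268%). The size factors were 0.947, 0.985 and 0.974 by day and 1.03, 1.06 and 1.00 at night, so each night library was scaled down relative to each day library. Scaling moved the median difference over all genes from 0.07 to 0.01, and the share of genes above 0 from 72.1% to 52.0%. The call was shared by 42 genes, 23 that rose and 19 that fell. All 169 other genes that rose without scaling lost their call with it, as did the matrix protease gene Mmp14 among those that fell, and 15 genes fell with scaling alone. The 3 night and 3 day libraries did not overlap in 28.7% of genes, lying higher at night in 24.3% and lower in 4.37%. With scaling these shares were 22.8%, 11.2% and 11.6%. Differences were small: Tsc22d3 was the only called gene to reach 1 without scaling, and no called gene did with it.

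**Figure D1:**
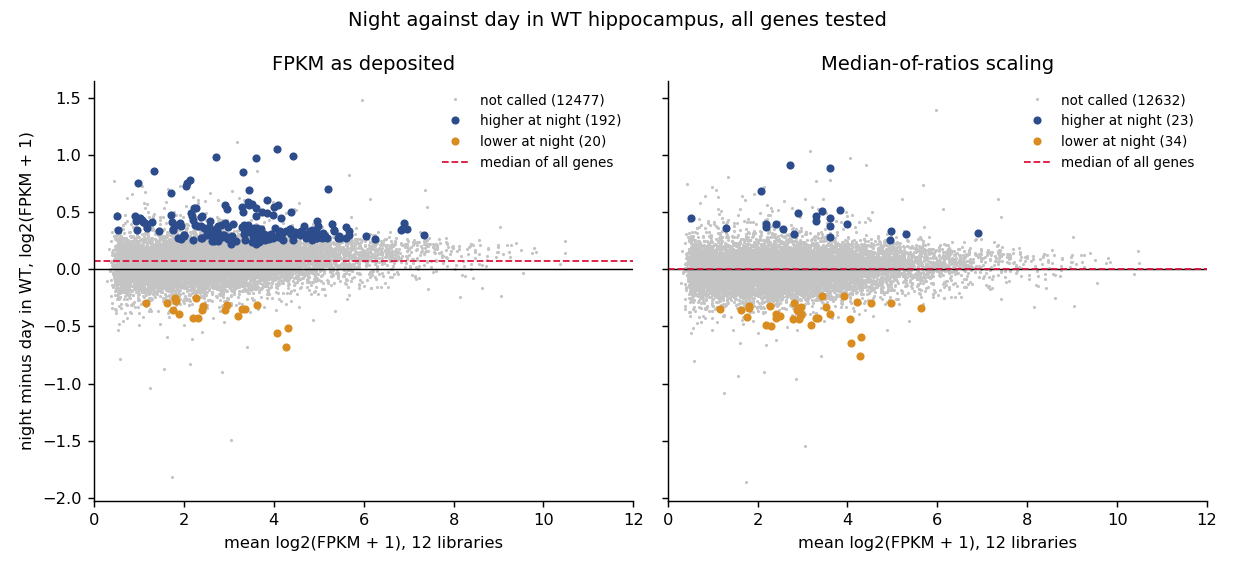
Night minus day difference in WT of each of the 12689 genes tested, in log2(FPKM + 1), against its mean log2(FPKM + 1) over the 12 libraries, without (left) and with (right) median-of-ratios scaling. Blue points are the genes called higher at night (192 and 23), orange points those called lower (20 and 34), and the dashed line is the median of all genes, 0.07 and 0.01.

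Genes that rose had short transcripts and genes that fell had long, GC-rich ones. The median transcript length was 2544 bases for the 192 genes that rose without scaling, 3998 for the 20 that fell and 3230 for all genes tested. Their median GC content was 47.9%, 57.4% and 50.3%. With scaling the medians were 1824 bases and 51.6% for the 23 that rose, and 4421 bases and 58.2% for the 34 that fell. Across 12609 genes, which are not independent replicates, the difference had a Spearman's rho of -0.26 with transcript length and -0.22 with GC content. Removal of the length trend from the deposited values left 22 calls, 11 higher and 11 lower. Removal of the GC trend, chosen after seeing the data, left 18, 13 higher and 5 lower. Both refits also levelled the libraries, with median differences of 0.003 and 0.004 over all genes. They therefore stand beside the 57 calls with scaling rather than the 212 without it. The part of length and GC content in the calls was not tested further.

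Few calls survived the loss of 1 WT library. Without Night WT replicate 1, the library with Y-linked genes near 0, 1 gene was called without scaling, the tetraspanin gene Tspan4, and 4 with it: Tspan4, Rbm3, Fabp7 and Pdk2. Tspan4 was likewise the only gene called without scaling when Day WT replicate 1, Night WT replicate 2 or Night WT replicate 3 was left out. The count was 41 without Day WT replicate 2 and 151 without Day WT replicate 3. With scaling it was 2, 1 and 33 without Day WT replicates 1, 2 and 3, and 1 without Night WT replicate 2 or 3. In fits without 1 DKO library the genes tested and the size factors were kept, so only the shared estimate of the spread changed. The count without scaling was 132 without Day DKO replicate 3 and 86, 64 and 79 without Night DKO replicates 1, 2 and 3. With scaling it was 3 without Day DKO replicate 2. A fit to the 6 WT libraries alone called 23 genes without scaling and 11 with it. Tspan4 was the only gene called in all 43 settings run. Before adjustment, 2827 genes had a p under 0.05 without scaling and 1946 with it.

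**Figure D2:**
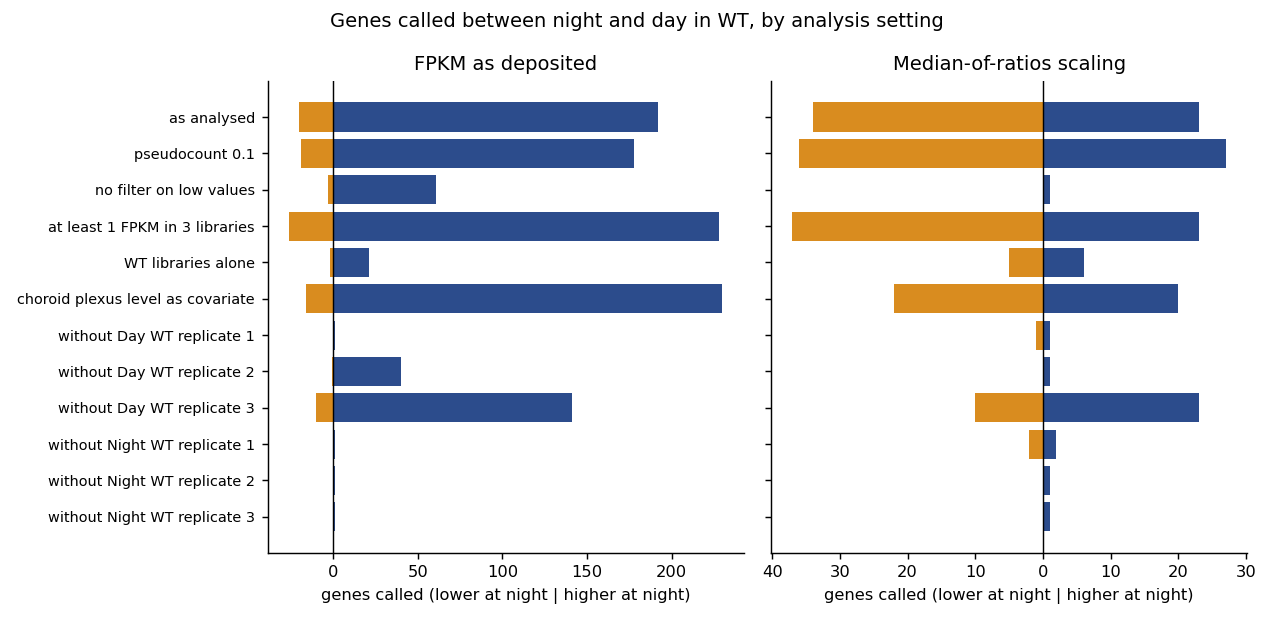
Number of genes called between night and day in WT (horizontal axis, lower at night to the left in orange, higher to the right in blue) in each analysis setting, without (left) and with (right) median-of-ratios scaling, on different horizontal scales. The count of 212 without scaling drops to 1 when Day WT replicate 1 or any 1 Night WT library is left out.

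Genes of the negative limb of the clock were higher at night. All 10 clock repressors tested had a positive difference with and without scaling, with a median of 0.24 without it and 0.16 with it, beside 0.07 and 0.01 over all genes. Per2, Nr1d2 and Ciart rose without scaling (3 of 10, beside 1.51% of all genes), and of these Per2 alone was called with it. In 9 of the 10 the 3 night libraries lay above the 3 day libraries without scaling, a pattern shown by 24.3% of all genes, and in 6 with scaling, against 11.2%. Without Night WT replicate 1 the medians were 0.28 and 0.20, and all 10 differences were positive.

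Ciart, a repressor that binds BMAL1 (gene ID 229599, chromosome 3, 95878500 to 95882257 in GRCm38.p6), stood at 0.788, 0.807 and 0.949 FPKM by day and 1.86, 2.55 and 2.71 at night. The lowest night library was well above the highest day library. It rose from 0.848 ± 0.0877 to 2.37 ± 0.452 FPKM, a difference of 0.86 ± 0.16 (SE) (limma, adjusted p = 0.0339), and missed the threshold with scaling (0.81, adjusted p = 0.0575). The promoter of Ciart is shown because it holds 3 copies of the E-box CACGTG, the element through which BMAL1 and CLOCK bind DNA. It is the 250 bases before the transcript start (RefSeq, GRCm38.p6, minus strand, chr3:95882229-95882478), with the E-boxes in capitals, their first bases 116, 58 and 44 bases before the start.

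Ciart promoter: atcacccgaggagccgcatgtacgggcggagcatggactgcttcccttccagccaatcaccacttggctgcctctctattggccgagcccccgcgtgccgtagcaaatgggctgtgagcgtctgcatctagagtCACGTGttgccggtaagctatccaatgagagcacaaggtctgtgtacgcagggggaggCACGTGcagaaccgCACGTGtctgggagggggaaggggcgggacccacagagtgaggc

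The E-box was found in 6.02% of the 32851 promoters of this length in the RefSeq table, searched on both strands. By gene, 1854 of 27025 held it at 1 or more listed starts. Of the 5 clock genes called, 4 had a promoter in that table, and Ciart was the 1 with an E-box there, which 4 of 18 clock genes not called also held. None of the 4 held the D-box (TTATGTAA or TTACGTAA, in 0.931% of all promoters) or the core of the REV-ERB and ROR element (TAGGTCA or TGGGTCA, in 5.38%). A match describes the letters of this window and no more. Per2 is not in that table.

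Per2, a period protein that represses BMAL1 and CLOCK, stood at 2.74, 2.74 and 2.78 FPKM by day and 4.44, 3.75 and 4.07 at night. The day libraries were nearly level and the night libraries all lay above them. It rose from 2.75 ± 0.0215 to 4.09 ± 0.35 FPKM (0.44 ± 0.07 (SE), limma adjusted p = 0.0216), and with scaling by 0.37 (adjusted p = 0.0467). Nr1d2, the nuclear receptor REV-ERB beta that represses Arntl, stood at 12.1, 12 and 11.5 FPKM by day and 18.3, 15.2 and 17.9 at night, with no overlap between day and night. It rose from 11.9 ± 0.336 to 17.2 ± 1.71 FPKM (0.49 ± 0.09 (SE), adjusted p = 0.0339), a call it lost with scaling (0.41, adjusted p = 0.0802). Its relative Nr1d1 (REV-ERB alpha) stood at 7.54, 6.06 and 6.05 FPKM by day and 8.02, 10.4 and 8.69 at night, so that every night library lay higher, and missed the threshold (0.41, adjusted p = 0.087).

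The other repressors were not called. Differences without scaling were 0.16 for Per1, 0.11 for Per3, 0.21 for Cry1, 0.22 for Cry2, 0.27 for Bhlhe40 and 0.18 for Bhlhe41, the last 2 encoding the DEC repressors. Per1, an early light-induced and glucocorticoid-responsive period gene, was the only repressor whose day and night libraries overlapped without scaling, at 4.16, 3.45 and 4.31 FPKM by day and 4, 4.78 and 4.85 at night. Bhlhe40 came nearest to a call among these 6 (adjusted p = 0.0712).

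Of the 4 bZIP factors that carry the clock's output, Dbp alone was called. Dbp, an activator that binds D-boxes, stood at 8.21, 9.68 and 7.61 FPKM by day and 16.4, 18.5 and 17.9 at night, and every night library exceeded every day library by a wide margin. It rose from 8.5 ± 1.07 to 17.6 ± 1.07 FPKM (0.97 ± 0.16 (SE), limma adjusted p = 0.0262), and with scaling by 0.89 (adjusted p = 0.0406). Its relatives Tef (0.07) and Hlf (0.08) and the opposing repressor Nfil3 (-0.06) overlapped between day and night. With scaling those 3 stood at -0.02, 0.00 and -0.11.

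On the positive limb, Arntl alone was called. Arntl, which encodes BMAL1, stood at 2.22, 2.32 and 2.19 FPKM by day and 1.59, 1.69 and 1.66 at night, with all 3 night libraries below all 3 day libraries. It fell from 2.25 ± 0.0673 to 1.65 ± 0.0529 FPKM (-0.29 ± 0.06 (SE), limma adjusted p = 0.0429), and with scaling by 0.35 (adjusted p = 0.0368). Clock stood at 8.06, 8.24 and 8.19 FPKM by day and 8.13, 8.12 and 7.95 at night, an overlap between day and night and a difference of -0.02. With scaling it stood at 8.51, 8.37 and 8.41 by day and 7.88, 7.69 and 7.94 at night, all 3 night values lower, and was not called (-0.09, adjusted p = 0.486). Without scaling Npas2, its forebrain relative, differed by 0.00. The nuclear receptor genes Rora and Rorb, whose proteins activate Arntl, had differences of 0.12 and -0.03. By limma, 1.67% of all genes were called without scaling and 0.449% with it. None of 7 kinase and ubiquitin ligase genes that set the life of clock proteins was called in either direction, with or without scaling. Their differences ran from -0.06 for Gsk3b to 0.16 for Fbxw11 among the genes Csnk1d, Csnk1e, Btrc, Fbxw11 and Gsk3b, and Usp2, a ubiquitin protease that stabilises clock proteins, stood at 0.29 (adjusted p = 0.067).

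The clock calls without scaling were mostly lost when 1 WT library was left out, though no difference changed sign. Across those fits the difference ran from 0.90 to 1.06 for Dbp, 0.79 to 0.97 for Ciart and 0.39 to 0.49 for Per2. It ran from 0.44 to 0.57 for Nr1d2 and from -0.31 to -0.28 for Arntl. Such fits also hold fewer libraries, and whether that or the library left out removed a call was not tested. Dbp stayed called without Day WT replicate 2 (limma adjusted p = 0.0485) or Day WT replicate 3 (0.0382) and lost its call without each of the other 4 (0.0648 to 0.0947). Per2 did likewise (0.0499, 0.0363 and 0.0536 to 0.0868). Ciart stayed called without Day WT replicate 3 alone (0.044, against 0.0611 to 0.121). Nr1d2 (0.0536 to 0.109) and Arntl (0.0579 to 0.14) lost their calls without any 1 of the 6. Without Night WT replicate 1 the differences were 1.02 for Dbp, 0.97 for Ciart, 0.39 for Per2, 0.44 for Nr1d2 and -0.28 for Arntl. With scaling none of the 5 was called once any 1 WT library was left out.

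**Figure D3:**
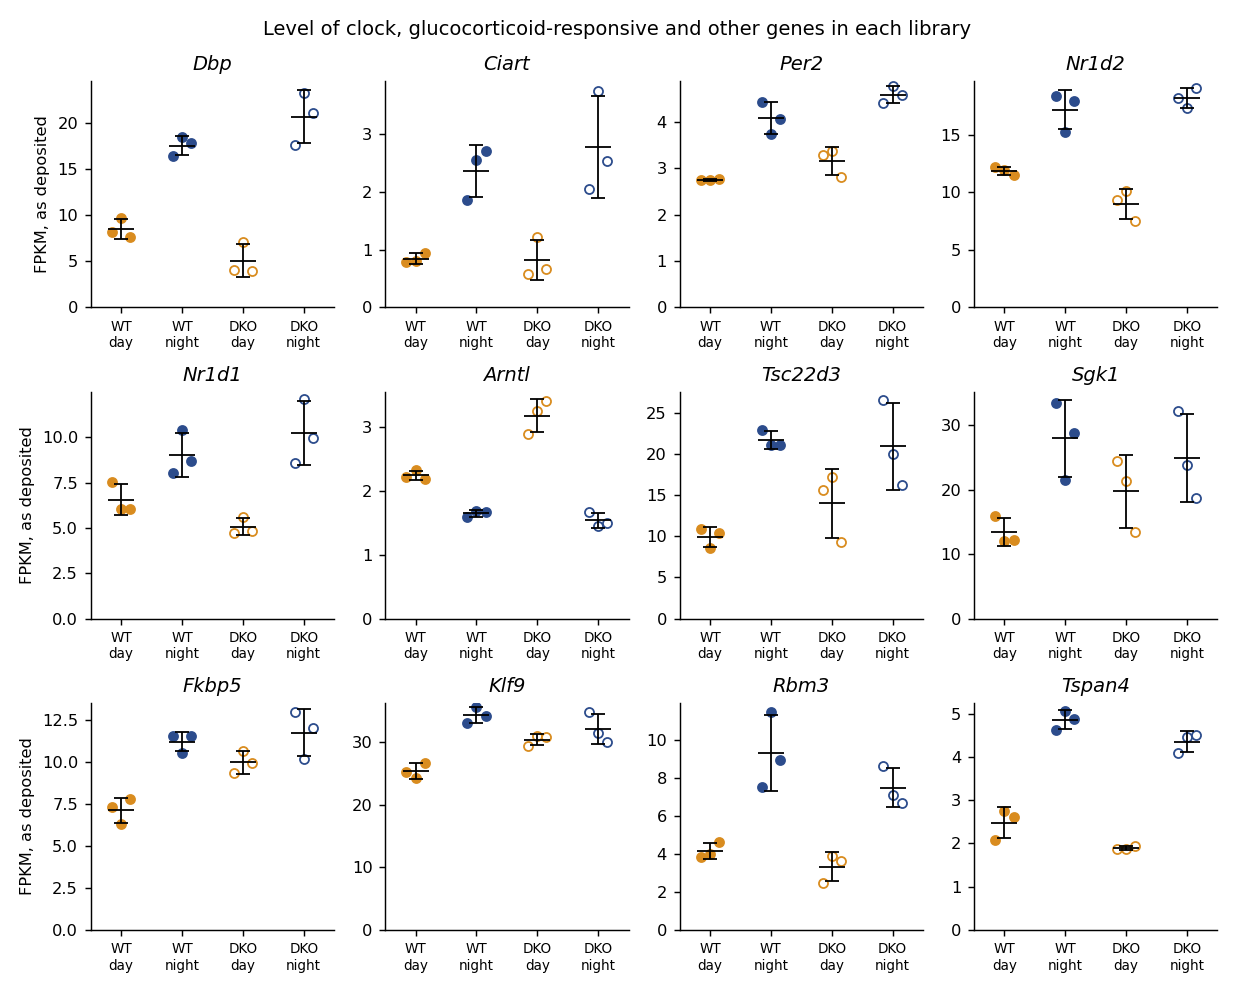
FPKM as deposited (vertical axis, linear, from 0) of 12 genes in each of the 12 libraries, by genotype and time. Points are libraries (filled for WT, open for DKO, orange by day, blue at night), and bars are the mean and SD of 3 libraries; in WT the night libraries lie above the day libraries in every panel except that of Arntl, where they lie below.

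Glucocorticoid-responsive genes were the list with the most calls without scaling. Of 24 tested, 8 rose without scaling, beside 1.51% of all genes, and none fell: Tsc22d3, Sgk1, Arl4d, Nfkbia, Fkbp5, Sult1a1, Klf9 and Errfi1. With scaling 2 were called higher, Fkbp5 and Klf9, beside 0.181% of all genes, a number no larger than that of the astrocyte or the endothelial list. The median difference of the 24 was 0.40 without scaling and 0.32 with it, and 22 of 24 were positive either way, as were 72.1% of all genes without scaling and 52.0% with it. In 18 of them the night libraries all lay above the day libraries, and in 15 with scaling, beside 24.3% and 11.2% of all genes. Their summed level without scaling was 295 to 351 FPKM by day and 442 to 468 at night, a gap between the groups wider than the range within either. Sums over all genes tested did not overlap either (150565 to 162080 and 166889 to 175207). The most abundant member was Mt2, not called, with scaling at 116 to 170 FPKM by day and 182 to 197 at night. Without Night WT replicate 1 the medians were 0.35 and 0.30.

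Tsc22d3, a leucine zipper protein that mediates anti-inflammatory effects of glucocorticoids (gene ID 14605, chromosome X, 140539528 to 140600522), stood at 10.9, 8.55 and 10.4 FPKM by day and 22.9, 21.1 and 21.1 at night. The groups were far apart relative to their spread, from 9.95 ± 1.25 to 21.7 ± 1.06 FPKM. The difference of 1.06 ± 0.19 (SE) was called (limma adjusted p = 0.0339) and narrowly missed the threshold with scaling (0.98, adjusted p = 0.0525). Tsc22d3 is X-linked, and without Night WT replicate 1 its difference was 1.02 (adjusted p = 0.103). Sgk1, a kinase that regulates ion channels, stood at 15.9, 12.1 and 12.2 FPKM by day and 33.5, 21.5 and 28.8 at night, with a wide spread at night but no overlap. It rose from 13.4 ± 2.18 to 28 ± 6.05 FPKM (1.00 ± 0.22 (SE), adjusted p = 0.0485), and was not called with scaling (0.91, adjusted p = 0.102).

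Fkbp5, a co-chaperone that lowers the receptor's affinity for hormone, stood at 7.27, 6.27 and 7.76 FPKM by day and 11.5, 10.5 and 11.5 at night. Night libraries differed little among themselves and lay above every day library. It rose from 7.1 ± 0.759 to 11.2 ± 0.572 FPKM (0.59 ± 0.09 (SE), limma adjusted p = 0.018), and with scaling by 0.51 (adjusted p = 0.0368). Its promoter is shown for comparison with that of Ciart, since it holds 1 E-box and no element of the glucocorticoid receptor (RefSeq, GRCm38.p6, minus strand, chr17:28486150-28486399), the E-box in capitals with its first base 169 bases before the start.

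Fkbp5 promoter: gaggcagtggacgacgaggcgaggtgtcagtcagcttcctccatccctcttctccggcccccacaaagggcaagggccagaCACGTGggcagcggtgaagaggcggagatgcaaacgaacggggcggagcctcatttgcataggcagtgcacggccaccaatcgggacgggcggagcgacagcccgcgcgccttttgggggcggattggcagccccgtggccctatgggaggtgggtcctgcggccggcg

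The glucocorticoid receptor element was searched as ACANNNTGT on both strands and stood in 5.84% of all promoters of the table. By gene, 1828 of 27025 held it at 1 or more listed starts. All 8 called genes of the list had a promoter there. Sgk1 was the 1 with the element, 127 and 186 bases before 2 of its 6 listed starts, and Fkbp5 and Sgk1 were the 2 with an E-box. Among the members not called, 3 of the 13 with a promoter there held the element and 2 an E-box. In the printed sequence no 2 motifs overlap. Binding of the receptor outside these 250 bases was not examined.

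Klf9, a transcription factor induced by glucocorticoids in neurons, stood at 25.2, 24.2 and 26.7 FPKM by day and 33.1, 35.6 and 34.2 at night. Day and night libraries did not overlap, and it rose from 25.4 ± 1.27 to 34.3 ± 1.27 FPKM (0.42 ± 0.06 (SE), limma adjusted p = 0.018; with scaling 0.34, adjusted p = 0.0368). The small GTPase gene Arl4d rose by 0.86 (from 6.07 ± 1.31 to 11.6 ± 0.699 FPKM), Nfkbia, the inhibitor of NF-kB, by 0.70 (from 7.21 ± 0.694 to 12.4 ± 1.79 FPKM), the phenol sulfotransferase gene Sult1a1 by 0.43 and the EGF receptor inhibitor gene Errfi1 by 0.39. With scaling these 4 had adjusted p-values of 0.0802, 0.105, 0.0506 and 0.139.

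Among the 16 members not called, several were higher in all night libraries. Plin4, a lipid droplet protein, stood at 0.492, 0.561 and 0.364 FPKM by day and 2.19, 0.935 and 1.37 at night (0.73, limma adjusted p = 0.058), with Night WT replicate 1 the highest. Hif3a, an inhibitor of the hypoxia response, stood at 0.168, 0.114 and 0.0788 FPKM by day and 0.561, 0.497 and 0.521 at night (0.45, adjusted p = 0.0564), each day value under each night value. The metallothionein genes Mt1 (0.46) and Mt2 (0.55) and the arrestin gene Arrdc2 (0.63) were likewise higher in every night library without scaling. Not all targets moved that way. Dusp1, a phosphatase quickly induced by stress and by neuronal activity, stood at 8.56, 7.66 and 10.5 FPKM by day and 8.42, 10.5 and 10.3 at night (0.12), with full overlap. The 2 negative differences were those of Cdkn1a (-0.10), a cell cycle inhibitor, and Bcl6 (-0.10), a repressor. That of Cdkn1a rested on Night WT replicate 1, at 0.787 FPKM against 1.5 and 1.63, and without that library and without scaling it was 0.07 and 23 of the 24 were positive.

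The calls of this list, like those of the clock genes, were mostly lost in fits with 1 WT library fewer. Fkbp5 stayed called without scaling when Day WT replicate 2 (limma adjusted p = 0.0499) or Day WT replicate 3 (0.0179) was left out, and lost its call without each of the other 4 (0.0536 to 0.0868). Klf9 did the same (0.0499, 0.0195 and 0.0556 to 0.0868). Tsc22d3 stayed called without Day WT replicate 3 (0.044) and not without the others (0.0755 to 0.103). Sgk1, Arl4d and Nfkbia lost their calls without any 1 WT library (0.0818 to 0.135, 0.0616 to 0.132 and 0.081 to 0.133). With scaling, Fkbp5 and Klf9 stayed called without Day WT replicate 3 (0.0429 and 0.0429) and not without the other 5.

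Other genes that rose at night belong to neither group. Tspan4, a tetraspanin that organises membrane domains (gene ID 64540, chromosome 7, 141475236 to 141493427), stood at 2.08, 2.74 and 2.61 FPKM by day and 4.64, 5.08 and 4.87 at night, with every night library far above every day library. It rose from 2.48 ± 0.352 to 4.86 ± 0.22 FPKM (0.76 ± 0.07 (SE), limma adjusted p = 0.00181), and with scaling by 0.69 (adjusted p = 0.00383), and kept its call when any 1 WT library was left out (adjusted p 0.00275 to 0.025 without scaling and 0.00791 to 0.0474 with it). Rbm3, an RNA-binding protein that rises when brain temperature falls, stood at 3.82, 3.99 and 4.62 FPKM by day and 7.51, 11.5 and 8.92 at night, again without overlap. It rose from 4.14 ± 0.421 to 9.3 ± 2 FPKM (0.99 ± 0.15 (SE), adjusted p = 0.018; with scaling 0.91, adjusted p = 0.0368). Rbm3 is X-linked, and without Night WT replicate 1 it stood at 1.12 (adjusted p = 0.0516) and with scaling at 1.04 (0.0277). Cirbp, the other cold-inducible RNA-binding protein tested, stood at 17.7, 23.8 and 15.6 FPKM by day and 23.8, 37 and 26.6 at night (0.59, adjusted p = 0.114); its night values began where its day values ended.

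The remaining large rises without scaling were those of the lysosomal phosphoinositide-binding protein gene Plekhf1 (from 2.45 ± 0.236 to 4.97 ± 0.65 FPKM, 0.79), the early response gene Ier3 (0.73), the calcification inhibitor gene Mgp (0.70) and the potassium channel subunit gene Kcns1 (0.67). None of these 4 was called with scaling (limma adjusted p = 0.0994, 0.0742, 0.0808 and 0.0785). Mgp reached 75.5 FPKM in Night WT replicate 1 and 51.2 and 51.7 in the others, and without that library its difference was 0.52 (adjusted p = 0.114) in place of 0.70.

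Rises that held with scaling covered several functions. Ramp2, a subunit of the adrenomedullin receptor of vessels, rose from 10.5 ± 1.88 to 16.4 ± 1.31 FPKM (0.60, and 0.52 with scaling). Abcg2, a drug efflux pump of the blood-brain barrier, rose from 2.89 ± 0.0764 to 4.38 ± 0.39 FPKM (0.47 and 0.40), and Ly6a, a surface protein of endothelium, from 5.63 ± 0.789 to 8.79 ± 0.679 FPKM (0.57 and 0.49). In the mitochondria, the coenzyme Q-binding protein gene Coq10b (0.54 and 0.46) and the pyrimidine nucleotide carrier gene Slc25a33 (0.50 and 0.42) rose. In transcription and chromatin, Taf9 (0.48 and 0.40), Sap30 (0.46 and 0.40), Chrac1 (0.39 and 0.31) and Morf4l1 (0.39 and 0.31) rose. So did the phosphatase inhibitor gene Ppp1r14b (0.53 and 0.45), the ribosome assembly gene Mrto4 (0.43 and 0.36) and the COPI coat gene Copg2 (0.36 and 0.28).

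Genes that fell included the endothelial junction gene Cldn5 and, from an astrocyte list with mostly positive differences, the markers Fabp7 and Sox9. Cldn5, the main claudin of the blood-brain barrier (gene ID 12741, chromosome 16, 18776847 to 18778262), stood at 22.1, 26.6 and 25.8 FPKM by day and 16.9, 16 and 12.7 at night, with each night library below each day library. It fell from 24.8 ± 2.38 to 15.2 ± 2.2 FPKM (-0.68 ± 0.14 (SE), limma adjusted p = 0.0429), and with scaling by 0.76 (adjusted p = 0.0368). Of 26 endothelial genes tested, Ly6a and Ly6c1 rose and Cldn5 fell without scaling, beside 1.51% and 0.158% of all genes, and with scaling Ly6a rose and Cldn5 fell. The list's median was 0.02 without scaling and -0.05 with it. With scaling the night libraries lay wholly lower in 4 of the 26 and wholly higher in 5, beside 11.6% and 11.2% of all genes. The 5 include Ly6a and Ly6c1. Of the 4, 2 not called were chosen after their values were seen. They are Flt1, a receptor of vascular endothelial growth factor (-0.22, adjusted p = 0.19), and Sox18, a transcription factor of endothelium (-0.35, 0.149). The glucose transporter gene Slc2a1 stood at 14.9, 15.1 and 14.3 FPKM by day and 25, 19.1 and 20.1 at night (0.50, adjusted p = 0.0589). Fewer cells of a type and less RNA per cell cannot be told apart in these bulk libraries.

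Fabp7, a lipid-binding protein of radial glia and astrocytes that is known to cycle daily in mouse brain, stood at 21.4, 21.7 and 21.3 FPKM by day and 17.8, 14.7 and 12.3 at night. Its day libraries were level and its night libraries spread below them. It fell from 21.5 ± 0.202 to 14.9 ± 2.78 FPKM (-0.51 ± 0.11 (SE), limma adjusted p = 0.0429), and with scaling by 0.59 (adjusted p = 0.0368). Without Night WT replicate 1, its highest night library, the difference was -0.64 (adjusted p = 0.0556, and 0.0172 with scaling). Sox9, a transcription factor of astrocytes and neural stem cells, stood at 3.71, 5.26 and 4.19 FPKM by day and 3.03, 2.92 and 3.02 at night, the night libraries level and below all day libraries. It fell by 0.42 (adjusted p = 0.0429) and with scaling by 0.49 (0.0382). These were the 2 called of 20 astrocyte genes, beside 0.158% of all genes called lower, and 0.268% with scaling. The list's median was 0.12, and 0.04 with scaling. Of the 20, 16 had a positive difference without scaling and 13 with it. Night libraries lay wholly higher in 9 and wholly lower in 3 without scaling, beside 24.3% and 4.37% of all genes. With scaling these counts were 2 and 4, beside 11.2% and 11.6%. None of 11 genes of neural stem cells and neurogenesis was called, with or without scaling, beside 1.67% (without) and 0.449% (with) of all genes.

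Other genes that fell included Rasl10a, Prrt1, Crtc1, Pdk2 and 5 more, and not all of the 20 that fell without scaling are named. Rasl10a, a Ras-like GTPase of neurons, stood at 14.3, 16.6 and 21.8 FPKM by day and 11, 12.1 and 11.2 at night, its night libraries close together and below the lowest day library. It fell by 0.56 (limma adjusted p = 0.0375) and with scaling by 0.64 (0.0368). Prrt1, an AMPA receptor auxiliary protein also known as SynDIG4, fell from 8.92 ± 0.174 to 6.46 ± 0.279 FPKM (-0.41, and -0.49 with scaling). Crtc1, a coactivator of CREB needed for memory, fell from 10.5 ± 0.652 to 8.05 ± 0.359 FPKM (-0.34 and -0.42), and Pdk2, a kinase that switches off pyruvate dehydrogenase, from 9.6 ± 0.247 to 7.33 ± 0.456 FPKM (-0.35 and -0.43). Sipa1l3 (-0.43 and -0.50), Adgrg1 (-0.36 and -0.43), an adhesion receptor, Gatsl2 (-0.36 and -0.44) and Pomt1 (-0.36 and -0.42), a mannosyltransferase, also fell under both treatments of the data. Mmp14 fell without scaling (-0.39) and missed the threshold with it (-0.45, adjusted p = 0.0601). Without scaling, Cldn5 (adjusted p 0.0698 to 0.115), Fabp7 (0.0556 to 0.135) and Sox9 (0.0569 to 0.132) lost their calls when any 1 WT library was left out, while Rasl10a (0.0363) and Pdk2 (0.0369) stayed called without Day WT replicate 3.

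The 15 genes that fell with scaling alone had differences between -0.44 and -0.23 on that scale, and between -0.36 and -0.15 without it. Camta2, a calmodulin-binding transcription factor, fell from 16.6 ± 0.94 to 12.8 ± 0.946 FPKM (-0.43, limma adjusted p = 0.0368; -0.35 and 0.0546 without scaling). Col4a2, a chain of basement membrane collagen, fell from 6.61 ± 0.579 to 4.93 ± 0.703 FPKM (-0.44, adjusted p = 0.0452). Genes outside the naming rule and chosen after their values were seen were Col4a1, its partner chain (-0.41), the presynaptic genes Rimbp2 (-0.35) and Snph (-0.30) and the synapse-organising receptor gene Adgrb1 (-0.30). Among 22 excitatory neuron and postsynaptic genes none was called, beside 1.67% of all genes without scaling and 0.449% with it. Of the 22, 10 had a positive difference without scaling and 3 with it, beside 72.1% and 52.0% of all genes. Without Night WT replicate 1 these counts were 16 and 7. Night libraries lay wholly lower in 4 without scaling and in 7 with it, beside 4.37% and 11.6% of all genes. They lay wholly higher in 1 and 0, beside 24.3% and 11.2%. Shank3, a scaffold of the postsynaptic density, stood at 15.8, 17.1 and 15.4 FPKM by day and 13.3, 13.8 and 13 at night (-0.25, adjusted p = 0.104, and -0.33, 0.0694 with scaling). Its night libraries all lay under its day libraries, as did those of Shank2 (-0.30 with scaling, adjusted p = 0.0749).

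Genes of the proteasome, the ribosome and the respiratory chain mostly had positive differences. Over all genes 72.1% were positive without scaling and 52.0% with it, the medians were 0.07 and 0.01, and 1.51% and 0.181% were called higher. All 32 proteasome subunit genes had a positive difference without scaling and 31 with it, with medians of 0.24 and 0.16. Psma1, Psma2, Psmb7, Psmd4, Psmd6 and Psmd14 (6 of 32) rose without scaling, by 0.30 to 0.38, and none was called with it. Psmd6 stood at 22.8, 23.7 and 25.7 FPKM by day and 30.2, 30.4 and 29.6 at night, its night libraries nearly level and above the day libraries. Of 80 cytosolic ribosomal protein genes, 79 were positive without scaling and 73 with it (medians 0.21 and 0.13). Of these 6 rose without scaling, among them Rpl12, Rpl22, Rps3a1, Rps4x and Rps27a, and Rpl12 rose with it (from 108 ± 1.16 to 144 ± 6.83 FPKM, 0.32, limma adjusted p = 0.0467). Ribosomal proteins have many near-identical pseudogenes, so their FPKM may be split by the authors' counting. Of 74 oxidative phosphorylation genes, Sdhc, Ndufs8 and Ndufs1 rose without scaling and none with it (medians 0.19 and 0.10). Over all genes the difference also ran with transcript length, as given above, and the part of length in these lists was not tested.

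Few chaperone and activity-induced genes were called, beside 1.51% of all genes called higher without scaling and 0.181% with it. None of 17 cytosolic heat shock genes was called with or without scaling (medians 0.11 and 0.02), and Hsp90aa1 stood at 188, 189 and 190.2 FPKM by day and 208, 210.4 and 211 at night. Of 15 genes of endoplasmic reticulum chaperones and stress, Herpud1, which helps to degrade misfolded proteins, rose without scaling (from 12.4 ± 0.907 to 18.5 ± 1.53 FPKM, 0.55, limma adjusted p = 0.0301) and missed the threshold with it (0.066). Of 32 activity-induced genes, Rgs2, a regulator of G protein signalling, rose without scaling (from 4.81 ± 0.346 to 6.11 ± 0.0999 FPKM, 0.29) and none was called with it. The list's median was 0.09, and 0.20 without Night WT replicate 1; with scaling it was 0.01 and 0.12. Bdnf, the neurotrophin gene, stood at 3.31, 3.37 and 4.01 FPKM by day and 4.52, 4.46 and 4.08 at night (0.23, adjusted p = 0.132). Gadd45b and Dusp5, not called, differed by 0.29 to 0.73 and 0.33 to 0.53 without scaling when 1 WT library was left out. None of 20 cholesterol synthesis genes was called, the median being 0.10.

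Blood cell genes had higher values at night. All 6 tested were higher in every night library than in every day library without scaling, and 3 with scaling, beside 24.3% and 11.2% of all genes. Of the 6, 1 was called without scaling (1.51% of all genes) and none with it. Hbb-bt, an adult beta globin, rose from 10.5 ± 2.58 to 15.8 ± 1.62 FPKM (0.57, limma adjusted p = 0.0429), and missed the threshold with scaling (0.102). The alpha globin gene Hba-a1 stood at 42.4, 53.4 and 46.1 FPKM by day and 81.3, 58 and 126 at night (0.82, adjusted p = 0.067), Night WT replicate 3 being the highest. Globin genes are near-identical copies whose reads the authors' counting could split. The summed level of the list was 124 to 165 FPKM by day and 187 to 299 at night, and none of its tested genes was at 0. Higher values of blood genes thus coincided with night in these libraries, less clearly with scaling, and the list was not tested. The part of blood genes in the other differences was not tested either.

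Most cell type lists held no called member. None was called, with or without scaling, among 13 smooth muscle and pericyte, 11 leptomeningeal fibroblast, 20 oligodendrocyte, 18 microglia, 13 interneuron, 15 hippocampal subfield and 14 neighbouring region genes. Over all genes 1.67% were called without scaling and 0.449% with it, so lists this short would hold few calls or none. Oligodendrocyte genes summed to 584 to 645 FPKM by day and 658 to 776 at night, without overlap, and the sums over all genes tested did not overlap either (150565 to 162080.0 and 166889 to 175207). Of the 20, 12 had a positive difference without scaling and 11 with it, beside 72.1% and 52.0% of all genes. The median of the 20 was 0.09, and 0.01 with scaling, beside 0.07 and 0.01 over all genes. Mog, of the myelin surface, stood at 6.97, 8.03 and 6.32 FPKM by day and 9.92, 9.53 and 9.19 at night (0.38, limma adjusted p = 0.0694). Microglial genes summed to 150.2 to 168 and 164 to 182 FPKM. Fibroblast genes summed to 423 to 791 by day and 658 to 919.9 at night, with Day WT replicate 1 the lowest, carried mostly by Ptgds at 374, 723 and 695 FPKM by day and 851, 797 and 601 at night.

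**Figure D4:**
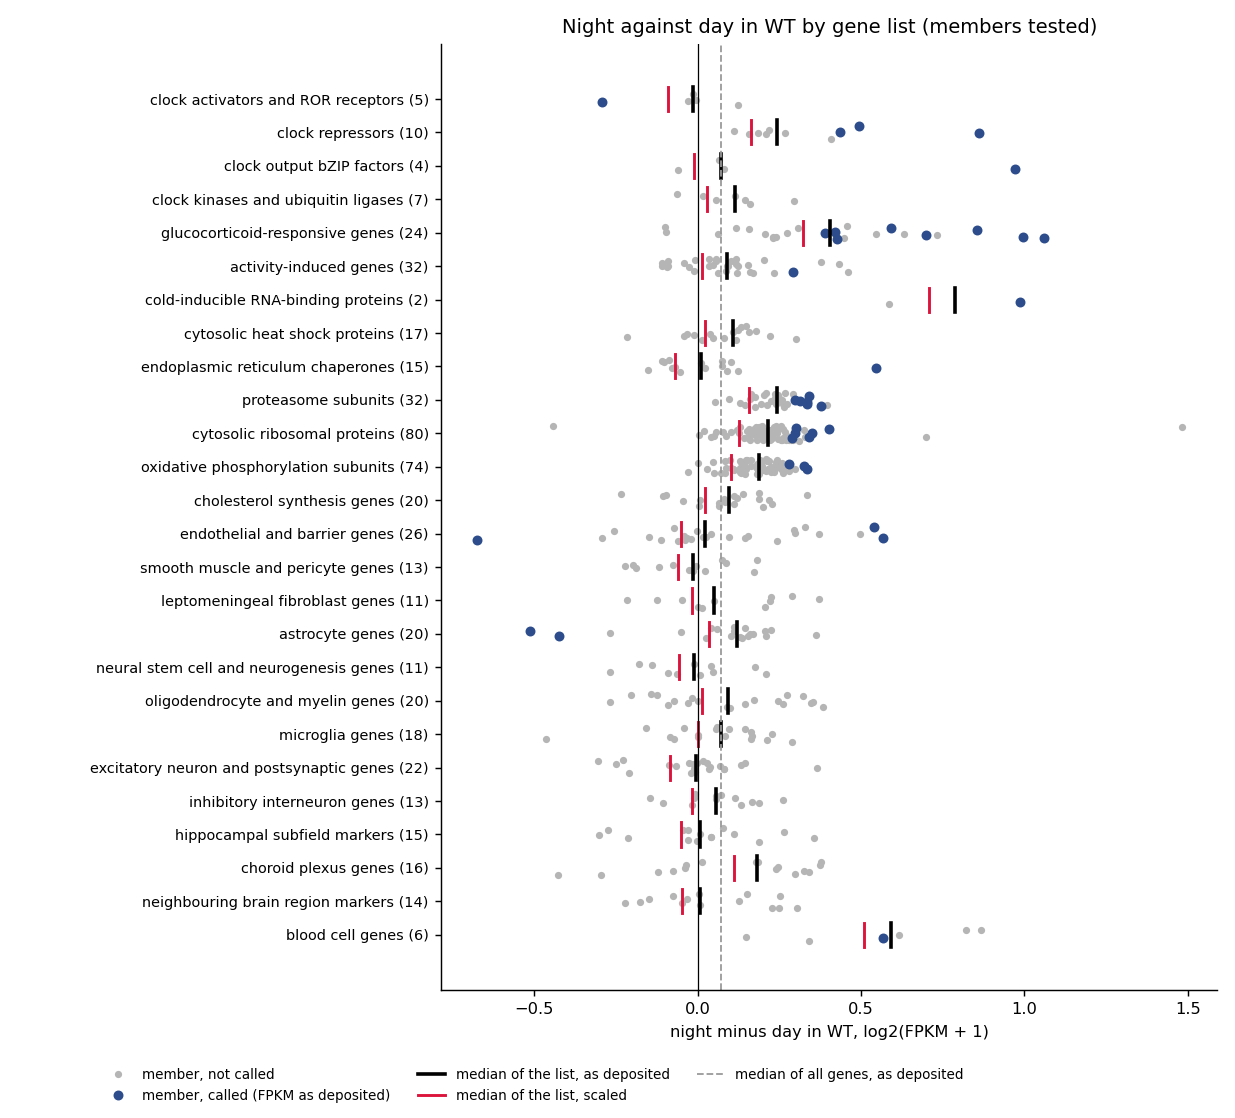
Night minus day difference in WT, in log2(FPKM + 1) without scaling (horizontal axis), of each tested member of 26 gene lists (1 line each, number of members tested in brackets). Blue points are members called, grey points members not called, black bars the list's median without scaling, red bars its median with median-of-ratios scaling, and the dashed line the median of all genes, 0.07; glucocorticoid-responsive genes have 8 called members and a median of 0.40.

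The same contrast in the DKO libraries, which share no library with WT, gave its own values for these genes. In DKO 38 of 12689 genes were called between night and day without scaling (0.299%). Of the 42 genes called in WT both with and without scaling, the DKO difference had the sign of the WT difference in 39, and it did so in 8021 of the 12689 genes tested. No gene was called for a difference of the time effect between genotypes (0.00% of 12689, smallest limma adjusted p = 0.396), with 1099 at an unadjusted p under 0.05. Without Day WT replicate 3, in which the mitochondrial assembly gene Timmdc1 stood at 4.56 FPKM against 1.72 and 1.85 in the other Day WT libraries, Timmdc1 was called for that difference (-1.21, adjusted p = 0.000254). The statements that follow therefore give the values side by side.

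The 5 clock genes with a WT call each had differences of 1 sign in both genotypes, unlike some that were not called, such as Btrc (0.14 in WT and -0.03 in DKO). Dbp differed by 0.97 in WT and 1.87 in DKO (adjusted p = 0.000194 in DKO), Nr1d2 by 0.49 and 0.95, Nr1d1 by 0.41 and 0.88, Per3 by 0.11 and 0.52, and Arntl by -0.29 and -0.72. The unadjusted limma p of the difference between genotypes was 0.00169 for Dbp, 0.00358 for Nr1d2, 0.0158 for Nr1d1, 0.00545 for Per3 and 0.000397 for Arntl, and none passed adjustment. Per2 (0.44 and 0.43) and Ciart (0.86 and 1.05) were closer. Nr1d1 and Per3 were called in DKO and not in WT, which does not show that they differ between genotypes.

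The 24 glucocorticoid-responsive genes had a median of 0.16 in DKO and 0.40 in WT, beside 0.02 and 0.07 over all genes, and the difference of the list was not tested. The 8 genes called in WT were chosen by their WT values, so a smaller value in DKO is no evidence of a difference. Klf9 differed by 0.42 in WT and 0.07 in DKO (unadjusted limma p of the difference 0.00188), Fkbp5 by 0.59 and 0.21 (0.00974), Sgk1 by 1.00 and 0.33 (0.0564) and Tsc22d3 by 1.06 and 0.56 (0.0929). None passed adjustment. Dusp1 (0.12 in WT and 0.77 in DKO) and Plin4 (0.73 and 0.79) had larger values in DKO. Day DKO libraries of Fkbp5, at 9.32, 10.6 and 9.91 FPKM, lay above all Day WT libraries. Outside these groups, Tspan4 (0.76 and 0.89), Rbm3 (0.99 and 0.98) and Coq10b (0.54 and 0.62) were called in both genotypes, as was Fabp7 (-0.51 and -1.18). Pdk2 had opposite signs (-0.35 and 0.11, unadjusted p of the difference 0.000105).

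**Figure D5:**
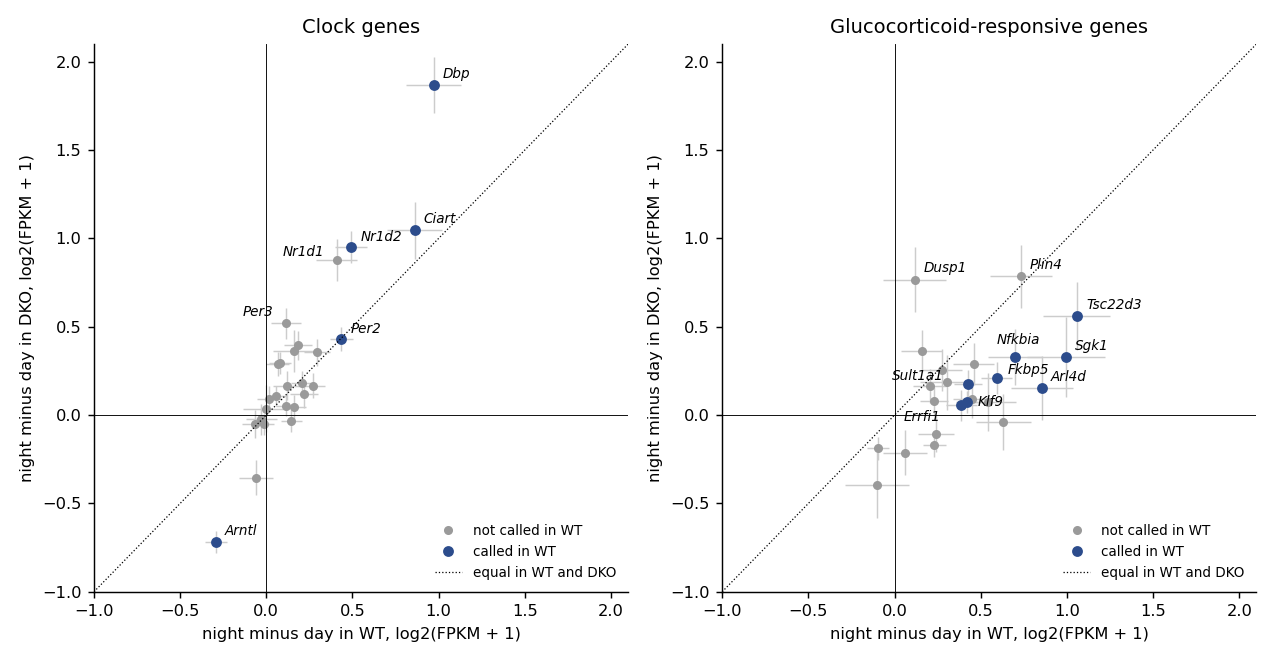
Night minus day difference in DKO (vertical axis) against that in WT (horizontal axis), both in log2(FPKM + 1) without scaling, for the tested clock genes (left) and glucocorticoid-responsive genes (right). Bars are standard errors, blue points are genes called in WT, and the dotted line marks equal differences: Dbp lies at 0.97 in WT and 1.87 in DKO. No gene was called for a difference between genotypes.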

How the data were processed

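Stranded TruSeq libraries were made from total RNA depleted of ribosomal RNA, per the labels' protocols. The submitters' processing notes name the build GRCm38.p6. The authors deposited 1 table per library with 1 FPKM value per gene, the unit being inferred here from the values, as no header names it. The aligner, the quantifier and the read numbers were not stated in the labels or headers, so depth is unknown, and an edgeR count test planned in case of counts was not used. Across 1258 sparsely detected genes, longer transcripts had smaller lowest values above 0 (Spearman's rho = -0.714), and steps between low values put the relative depth of the libraries at 0.908 to 1.06 of that of Day WT replicate 1. The symbols of 27 genes turned into dates were restored by gene ID, and 21727 of 21878 genes matched the reference table of the build.

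Tables were joined by gene ID, and log2(FPKM + 1) of genes with at least 0.5 FPKM in 3 or more libraries was fitted with limma 3.58.1 in R 4.3.3, with a mean for each of the 4 groups and an intensity-dependent variance prior, without and with median-of-ratios scaling over the 15003 genes above 0 in all 12 libraries. The script was tested on simulated data. Each adjusted p of the text is from limma. Named genes are, per scaling, the called genes with the 12 largest rises and 12 largest falls (mean log2 of at least 1, no overlap between day and night, no provisional symbol), up to 15 genes called both ways, all clock and glucocorticoid-responsive genes, and called or top members of other lists. The members compared, the 27 gene lists (542 entries) and the tests were chosen with earlier results of these data known. Lists were described by counts and medians and not tested.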

Additional observations from a re-analysis of the deposited data

How the results depend on the processing

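Without scaling, the count of 212 genes called between night and day in WT became 57 with median-of-ratios scaling, 72 with quantile normalization (26 higher and 46 lower), 22 with the length trend removed, 18 with the GC trend removed, 64 without a filter on low values, 23 in a fit to the WT libraries alone, 99 without an intensity trend and 418 with quality weights. It ranged from 1 to 213 when 1 library was left out. With scaling, the count of 57 became 1 without a filter and 11 in the WT libraries alone, and ranged from 1 to 57 when 1 library was left out. The cause of these changes was not tested. Removal of the length or the GC trend also levelled the libraries, as scaling does. A pseudocount of 0.1, a minimum of 1 FPKM and, chosen after seeing the data, the choroid plexus level as a covariate (246 called without scaling and 42 with it) kept both counts within 1.5 times. The count of genes whose time difference differed between genotypes was 0, and 0 to 1 when 1 library was left out. With the replicate number as a block (replicate block), 10 genes were called without scaling, all higher, and 14 with it, 9 higher and 5 lower. Whether equal numbers pair the samples is not stated. Deviations of same-numbered day and night WT libraries correlated at 0.136, -0.0905 and -0.0738, and those of different-numbered ones at -0.171 to 0.22. With 3 libraries a group these deviations are tied to one another, so they cannot decide on a pairing. Among the 169 genes examined singly, no alternative reversed a called difference. Of the pairs of a gene and a setting, 1587 lost a call, 48 gained one and 5453 kept their side of the threshold. With 3 libraries a group of FPKM and no read numbers, differences of low genes and counting error cannot be judged.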
